A study of Mus musculus with 8 samples.

Results

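The hormone-sensing luminal program of the mouse mammary gland was examined through 9 genes: the receptor genes Esr1, Pgr and Prlr, the transcription factor genes Foxa1 and Gata3, the secreted or membrane-anchored ligand genes Areg, Wnt4 and Tnfsf11, and the transcriptional cofactor gene Cited1. They were taken as a named list, and all 9 were found by symbol among the 51789 genes of the deposited count table. The study asked how small extracellular vesicles (sEVs) from AT3, a mouse mammary adenocarcinoma cell line with metastatic potential, act on the normal gland of immunocompetent female albino C57BL/6 mice. Abdominal mammary glands received 1 injection of sEVs collected from AT3 cells in hypoxia (sEV HYP, 2 glands sequenced), of sEVs collected in normoxia (sEV NORM, 3 glands), or of the same preparation made from medium that had not been on cells (sEV CTRL, 3 glands). Polyadenylated RNA of the whole gland was sequenced 6 weeks later. The estrous stage and the age of each sequenced mouse are not given in the sources used here. Every group therefore carried an injection of vesicle preparation, and none was an untouched gland.

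In the adult gland, estrogen and progesterone act on a subset of luminal epithelial cells that carry their receptors. These cells respond mostly by releasing paracrine signals: estrogen induces amphiregulin (Areg), which acts through the EGF receptor of stromal cells during ductal growth, and progesterone with prolactin induces Wnt4 and RANKL (Tnfsf11), which act on neighboring basal and progenitor cells to drive side branching. FOXA1 opens chromatin for the estrogen receptor, GATA3 keeps luminal cells differentiated, and CITED1 is a cofactor that binds the estrogen receptor and is needed for its induction of Areg.

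The RefSeq promoter windows (250 bases before the transcription start, build GRCm38.p6) of Areg, Pgr and Tnfsf11 are shown for the following reasons. Areg and Pgr had the highest Pearson r of the pairs of members across the glands. Tnfsf11 was lowest in the sEV HYP glands, where Areg was highest. Capitals mark the letters of a cAMP response element (TGACGTCA) or of a TATA box (TATAAA), each searched on both strands and at any position. In Pgr and Tnfsf11 the match reads TTTATA, on the opposite strand. In Pgr it lies in the part of the window far from the transcription start. The windows lie at chr5:91139349-91139598 on the plus strand for Areg, chr9:8899583-8899832 on the plus strand for Pgr, and chr14:78308044-78308293 on the minus strand for Tnfsf11.
Areg: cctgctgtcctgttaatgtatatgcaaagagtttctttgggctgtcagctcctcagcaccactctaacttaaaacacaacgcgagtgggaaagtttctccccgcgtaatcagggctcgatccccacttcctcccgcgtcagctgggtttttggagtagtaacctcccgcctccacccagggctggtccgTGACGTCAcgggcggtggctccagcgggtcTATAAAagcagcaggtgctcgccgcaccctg
Pgr: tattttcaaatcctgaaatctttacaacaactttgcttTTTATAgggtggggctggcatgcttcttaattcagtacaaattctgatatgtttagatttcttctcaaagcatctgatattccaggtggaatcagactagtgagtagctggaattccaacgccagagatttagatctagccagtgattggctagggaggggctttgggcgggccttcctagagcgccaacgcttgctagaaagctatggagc
Tnfsf11: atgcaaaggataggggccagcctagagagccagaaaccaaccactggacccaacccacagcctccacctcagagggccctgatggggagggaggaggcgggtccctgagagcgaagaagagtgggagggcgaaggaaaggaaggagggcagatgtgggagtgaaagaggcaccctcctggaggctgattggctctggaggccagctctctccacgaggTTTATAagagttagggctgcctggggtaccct
The cAMP response element was found in the Areg window alone among the 14 windows of the 9 genes, and 1.55% of all 32851 promoter windows of this length held it. TATAAA was found in windows of Areg, Cited1, Pgr and Tnfsf11 (5 of the 14), against 12.4% of all windows. The palindromic estrogen response element, made of GGTCA and its reverse complement 3 bases apart, was in none of the 14 windows and in 0.0639% of all. The GGTCA letters alone, which every full element also contains, was in windows of Cited1, Foxa1 and Gata3 and in 35.2% of all. The STAT site TTCNNNGAA, which includes the sites bound by STAT5 downstream of the prolactin receptor, was in windows of Esr1 and Prlr and in 7.02% of all. The forkhead site TGTTTAC was in windows of Foxa1 and Prlr and in 3.17% of all, and the GATA site AGATAA was in no member window and in 9.99% of all. These matches describe the letters of the windows and do not show that a factor was bound.

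The 8 libraries held 18194996 to 24622569 counts. Values are given as CPM, counts scaled to the size of the library after TMM correction, and replicates are labelled as separate samples, so P values measure the spread between these glands. The 15 markers of luminal epithelium were all detected, with a summed level of 763 to 912 CPM in sEV CTRL, 881 to 931 CPM in sEV NORM and 943 to 1052 CPM in sEV HYP, and 0 of 15 passed the test in any comparison. Because whole glands were sequenced, fewer cells of a type and less RNA per cell cannot be told apart. Tissue make-up differed between glands: the 12 skeletal muscle markers summed to 694 to 9562 CPM in sEV CTRL, 29.4 to 3184 CPM in sEV NORM and 4936 to 13610 CPM in sEV HYP, and all 12 were detected. The 10 skin markers summed to 84.2 CPM in sEV NORM replicate 3 and to 9.19 to 13.0 CPM in the other 7 glands. The 8 B and plasma cell markers summed to 3438 CPM in sEV CTRL replicate 1 and 3062 CPM in sEV NORM replicate 2, against 898 to 1792 CPM in the others.

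All 9 genes were expressed in all 8 glands and all passed the filter on low counts. Per kilobase of exon, the order of the median levels was Areg (60.8 CPM per kb), Prlr (53.9), Foxa1 (15.97), Gata3 (15.92), Pgr (10.3), Cited1 (6.12), Esr1 (6.06), Tnfsf11 (4.34) and Wnt4 (1.44). Exon length here is the union over all annotated isoforms, which lowers the level of genes with long untranslated ends such as Esr1 and Prlr. Neighbors in this order were not always separable: Areg was above Prlr in 3 of 8 glands, Foxa1 above Gata3 in 5, and Cited1 above Esr1 in 3. By contrast, Prlr was above Foxa1 and Tnfsf11 above Wnt4 in 8 of 8. Areg was also the most variable of the 9, with a 12.1-fold range between its lowest and highest gland, followed by Cited1 (8.85-fold). Esr1 had the narrowest range, 1.95-fold.

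**Figure D1:**
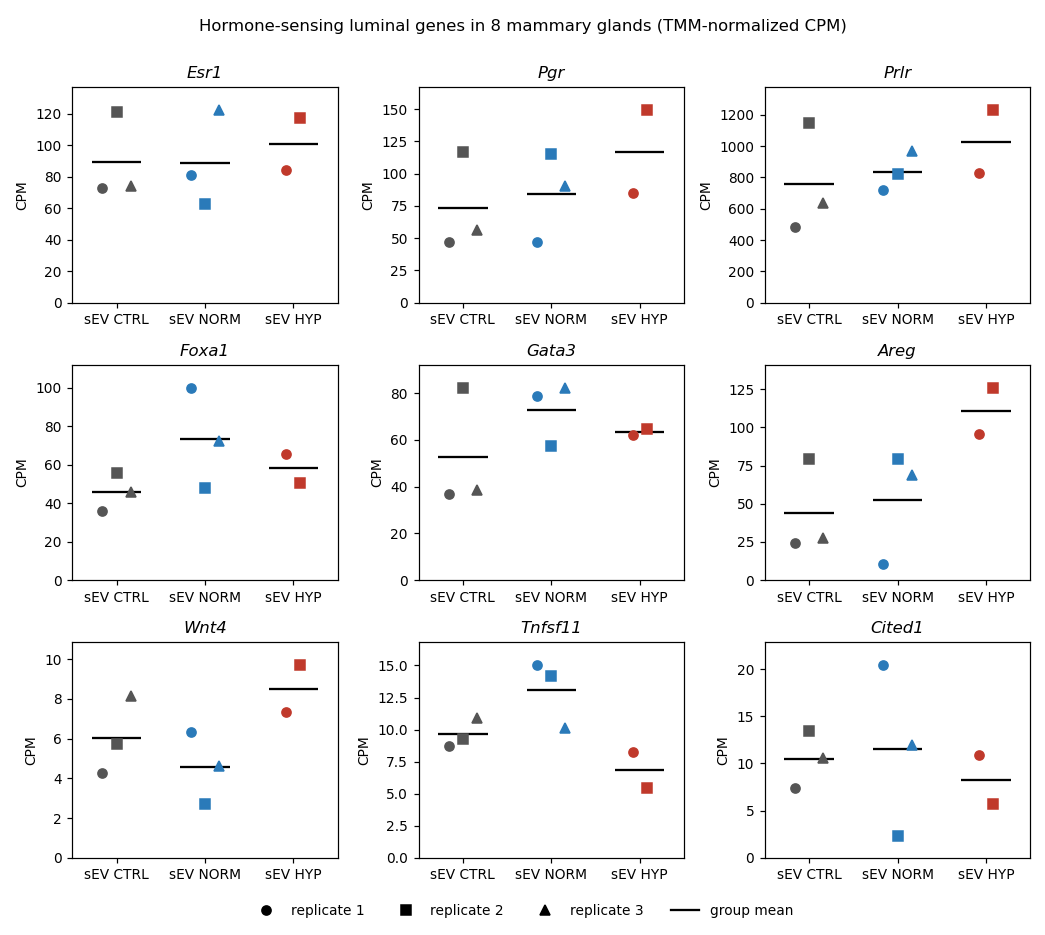
Level of each of the 9 hormone-sensing luminal genes (vertical axes, TMM-scaled CPM, each starting at 0) in the 3 sEV CTRL, 3 sEV NORM and 2 sEV HYP glands (horizontal axes). Points are single glands, shaped by replicate number, and bars are group means. Areg lies highest and Tnfsf11 lowest in the 2 sEV HYP glands, while the groups overlap for Esr1, Pgr, Prlr, Foxa1, Gata3 and Cited1.

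Between sEV HYP and sEV NORM glands, transcripts of the receptors did not pass the test, Tnfsf11 (RANKL) was lower and Wnt4 was higher. Of the 9 genes, 2 had an unadjusted P under 0.05 in edgeR's quasi-likelihood test, 1 in each direction, beside 3.95% of all 17858 genes tested. After Benjamini-Hochberg adjustment 0 of 9 passed (background 0.00%, 706 genes at an unadjusted P under 0.05). DESeq2 on the same 2 groups passed 83 of all genes after adjustment, again with none of the 9. The median log2 fold change of the 9 was 0.19, against -0.020 over all genes tested. The 2 sEV HYP glands lay wholly above or below the 3 sEV NORM glands for Areg, Wnt4 and Tnfsf11, a separation found for 22.8% of all genes.

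Between sEV HYP and sEV CTRL glands, 0 of 9 passed at an unadjusted P under 0.05 in edgeR (background 2.45%, or 438 genes) and 0 of 9 after adjustment (background 0.00%). DESeq2 passed 14 genes after adjustment, none of them among the 9, and at an unadjusted P under 0.05 it passed 1 of the 9, Areg, beside 387 of 25790 genes. The median log2 fold change of the 9 was 0.34, against -0.015 over all genes. The groups did not overlap for Areg and Tnfsf11, a separation found for 12.8% of all genes. Leaving out sEV CTRL replicate 2, the control gland with the highest Pgr, Prlr, Gata3 and Areg, brought the count to 4 of 9 (those 4 genes, all higher in sEV HYP), beside 8.32% of all genes in that fit against 2.45% with all glands. Leaving out sEV NORM replicate 1 brought it to 1 (Areg), beside 2.07% of all genes. Leaving out either of the other sEV CTRL glands left it at 0, beside 2.39% (replicate 1) and 2.76% (replicate 3). Without sEV HYP replicate 1 or 2, when 1 sEV HYP gland was left, Tnfsf11 was at -0.83 and -0.24 in log2.

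Between sEV NORM and sEV CTRL glands, 1 of 9 passed, Foxa1, which rose in sEV NORM (background 1.62%, or 290 genes). After adjustment 0 of 9 passed (background 0.00%), and DESeq2 passed 3 genes, none of the 9. The median log2 fold change was 0.20, against -0.0008 over all genes. None of the 9 was separated between these groups, as 4.86% of all genes were. Each comparison shares a group with the other two, so their values are not independent.

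**Figure D2:**
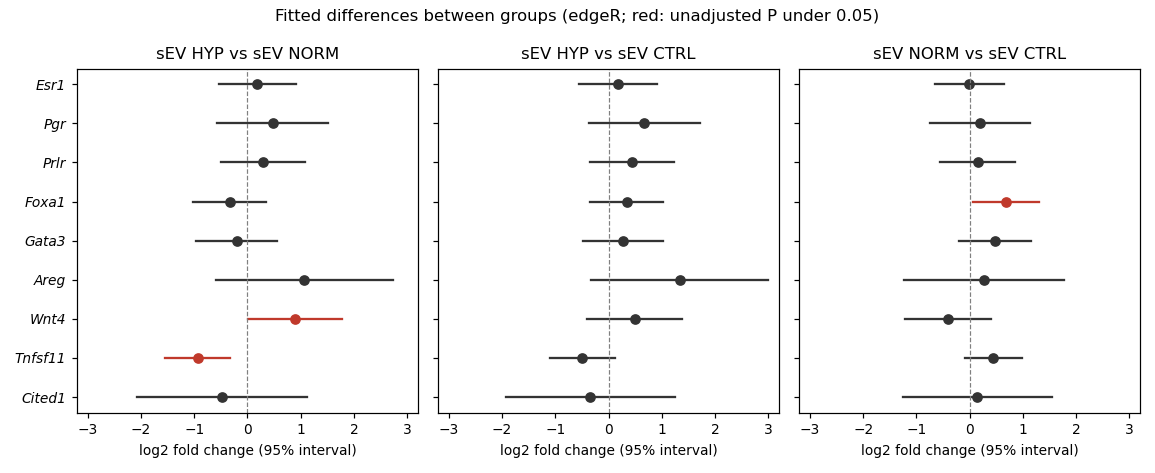
Fitted log2 fold change of each gene (points) with its 95% interval (lines) in the 3 comparisons, from the edgeR fit to all 8 glands. Red marks an unadjusted P under 0.05: Wnt4 (0.90) and Tnfsf11 (-0.94) in sEV HYP against sEV NORM, and Foxa1 (0.68) in sEV NORM against sEV CTRL. All other intervals include 0, and those of Areg and Cited1 are the widest.

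Esr1 (chr10:4611593-5005614 in GRCm38, plus strand) encodes estrogen receptor alpha. It was measured at 72.7, 121 and 74.0 CPM in the sEV CTRL glands, 81.2, 62.8 and 122 CPM in the sEV NORM glands and 84.4 and 117 CPM in the sEV HYP glands. The groups overlapped, and each group held 1 gland at 117 CPM or above. The log2 fold change of sEV HYP was 0.19 over sEV NORM (95% interval -0.54 to 0.91) and 0.18 over sEV CTRL (-0.55 to 0.90), with adjusted P values of 0.9998 and 0.9999, and the intervals allow a rise of up to 0.91 in log2. Across the 8 glands the level of Esr1 followed the mean log2 level of 8 fibroblast markers (Pearson r = 0.98, Spearman rho = 1.00, n = 8), a description of glands that share library depth and RNA source. Fibroblasts of the gland also express Esr1. The summed fibroblast markers were 4097 to 6443 CPM in sEV CTRL, 4288 to 6555 CPM in sEV NORM and 5405 to 6416 CPM in sEV HYP, with all 8 detected, and their part in the Esr1 level was not tested beyond a fit with their mean as a covariate, chosen after seeing the data, in which the Esr1 difference between sEV HYP and sEV CTRL was -0.082 in log2.

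Pgr (chr9:8899833-8968611, plus strand), the progesterone receptor gene and itself a target of the estrogen receptor, was at 47.0, 117 and 56.0 CPM in sEV CTRL, 47.2, 115 and 90.7 CPM in sEV NORM, and 84.8 and 149 CPM in sEV HYP. The highest gland of the 8 was sEV HYP replicate 2, but sEV HYP replicate 1 lay within the range of both other groups. The log2 fold change was 0.47 over sEV NORM (95% interval -0.56 to 1.51) and 0.67 over sEV CTRL (-0.36 to 1.71). Without sEV CTRL replicate 2 the latter was 1.18 and past an unadjusted P of 0.05 in edgeR, whereas without sEV HYP replicate 2 the differences fell to 0.20 over sEV CTRL and 0.0058 over sEV NORM.

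Prlr (chr15:10177238-10349180, plus strand), the prolactin receptor gene, was the most counted of the 9 (9567 to 25127 counts per library). Its level was 486, 1146 and 636 CPM in sEV CTRL, 719, 822 and 971 CPM in sEV NORM, and 830 and 1229 CPM in sEV HYP. The control glands spanned more than the difference between groups. The log2 fold change was 0.30 over sEV NORM (95% interval -0.49 to 1.09) and 0.45 over sEV CTRL (-0.34 to 1.23). Without sEV CTRL replicate 2, sEV HYP was 0.88 and sEV NORM 0.58 above sEV CTRL, both past an unadjusted P of 0.05, whereas omitting sEV CTRL replicate 1 lowered the sEV HYP difference from sEV CTRL to 0.21, and omitting sEV HYP replicate 2 lowered it to 0.12. A second gene model on the same strand, Gm21973, overlaps exons of Prlr and had 0 counts in all libraries.

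Foxa1 (chr12:57540628-57546916, minus strand) was at 35.8, 55.6 and 45.9 CPM in sEV CTRL, 99.9, 47.7 and 72.5 CPM in sEV NORM, and 65.5 and 50.6 CPM in sEV HYP. The sEV NORM glands held the 2 highest values, and sEV NORM replicate 2 lay within the control range. Foxa1 rose by 0.68 in log2 from sEV CTRL to sEV NORM (SE 0.27, 95% interval 0.062 to 1.30, adjusted P = 0.9998). The call was lost without sEV NORM replicate 1 (0.39) and in the fit with luminal markers as a covariate (0.36), and also in the fits without sEV NORM replicate 3 (0.69) or sEV CTRL replicate 1 (0.51) or 3 (0.68). Foxa1 followed those luminal markers across the glands (r = 0.78, n = 8), and the myeloid markers as closely (r = 0.83). Against sEV NORM, sEV HYP differed by -0.34 (95% interval -1.03 to 0.36), and by -0.71 with skeletal muscle markers as a covariate, past the unadjusted threshold. The mean log2 CPM of the muscle markers was 7.90 and 8.57 in sEV HYP and 7.44, -0.30 and 6.57 in sEV NORM. Group and muscle level were therefore not separate in that fit.

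Gata3 (chr2:9857078-9890034, minus strand) was at 37.1, 82.1 and 38.6 CPM in sEV CTRL, 78.9, 57.5 and 82.3 CPM in sEV NORM, and 62.2 and 64.5 CPM in sEV HYP. The lowest values were those of sEV CTRL replicates 1 and 3, but sEV CTRL replicate 2 was among the highest, so the groups overlapped. The log2 fold change of sEV NORM over sEV CTRL was 0.47 (95% interval -0.21 to 1.15), and that of sEV HYP over sEV NORM was -0.20 (-0.96 to 0.56). Without sEV CTRL replicate 2, the former was 0.95 and past an unadjusted P of 0.05, as it was with skeletal muscle (0.73), fibroblast (0.46) or T cell markers (0.61) as a covariate. Gata3 is also made by lymphoid cells, and the 12 T cell and innate lymphoid markers summed to 501 to 850 CPM in sEV CTRL, 632 to 856 CPM in sEV NORM and 473 to 749 CPM in sEV HYP, all 12 detected. Across the 8 glands Gata3 had r = -0.67 with their mean log2 level. Of the gene models that overlap it, the antisense Gm13256 had 0 counts over all libraries, 9230102O04Rik, which shares exons on the same strand, had 35, and 4930412O13Rik on the other strand, with no exon in common, had 90.

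Areg (chr5:91139599-91148432, plus strand), the amphiregulin gene, had the largest fitted difference of the 9 in both comparisons of sEV HYP when all 8 glands were used, and the widest error. Against sEV NORM this rank depended on single glands: without sEV NORM replicate 1 Areg was at 0.58 in log2, below Wnt4 (1.21), and without sEV HYP replicate 1 it was at 1.26, beside -1.27 for Tnfsf11. It was at 24.3, 79.3 and 27.8 CPM in sEV CTRL, 10.4, 79.0 and 68.8 CPM in sEV NORM, and 95.5 and 126 CPM in sEV HYP. Both sEV HYP glands were above each of the other 6 glands, whereas sEV CTRL and sEV NORM each held high and low glands. The mean of sEV HYP was 2.10-fold that of sEV NORM in the fit (log2 fold change 1.07, 95% interval -0.59 to 2.73) and 2.53-fold that of sEV CTRL (1.34, -0.32 to 2.99). Fits to the sEV HYP and sEV CTRL glands alone gave a log2 fold change of 1.34 in edgeR and 1.33 in DESeq2, both past an unadjusted P of 0.05 but not past it after adjustment (DESeq2 adjusted P = 0.9999). Leaving out sEV CTRL replicate 2 gave 2.09, and leaving out sEV NORM replicate 1, the lowest gland, gave 1.34, and both passed at that threshold. Areg followed the luminal markers little (r = 0.19, n = 8).

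Wnt4 (chr4:137277489-137299726, plus strand) was the lowest of the 9 per kilobase, with 61 to 181 counts per library. Its level was 4.27, 5.75 and 8.15 CPM in sEV CTRL, 6.36, 2.70 and 4.64 CPM in sEV NORM, and 7.33 and 9.69 CPM in sEV HYP. Both sEV HYP glands were above the sEV NORM glands, and sEV CTRL replicate 3 lay between the 2 sEV HYP glands. Wnt4 rose 1.86-fold from sEV NORM to sEV HYP (log2 fold change 0.90, SE 0.39, 95% interval 0.0094 to 1.78, adjusted P = 0.9998). The call was lost in 10 of 18 alternative fits, among them those without sEV NORM replicate 2 (0.63) or 3 (0.91), sEV HYP replicate 1 (1.08) or 2 (0.67) or sEV CTRL replicate 2 (0.90), and the one with skeletal muscle markers as a covariate (0.51). Across the 8 glands Wnt4 had a Pearson r of 0.82 with those muscle markers but a Spearman rho of 0.60. The gland with the lowest Wnt4, sEV NORM replicate 2, also had by far the lowest mean of the muscle markers (-0.30 in log2 CPM). Against sEV CTRL the difference was 0.49 (95% interval -0.40 to 1.38).

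Tnfsf11 (chr14:78277445-78308043, minus strand), the RANKL gene, was the member with the smallest P value. It was at 8.68, 9.30 and 10.9 CPM in sEV CTRL, 15.0, 14.1 and 10.1 CPM in sEV NORM, and 8.25 and 5.41 CPM in sEV HYP, from 101 to 373 counts per library. The 2 sEV HYP glands were below all others, although sEV HYP replicate 1 was close to sEV CTRL replicate 1. Tnfsf11 fell to 0.522-fold from sEV NORM to sEV HYP (log2 fold change -0.94, SE 0.27, 95% interval -1.55 to -0.32, adjusted P = 0.9998). DESeq2 on the 2 groups gave -0.93 (adjusted P = 0.209). The difference was past an unadjusted P of 0.05 in 17 of 18 alternative fits, and was lost without sEV HYP replicate 2 (-0.67), when 1 sEV HYP gland was left and was assumed to vary like the other groups. Against sEV CTRL, sEV HYP was at -0.49 (95% interval -1.10 to 0.12), and sEV NORM at 0.44 (-0.090 to 0.98). The former was -0.83 without sEV HYP replicate 1, past the same threshold, and -0.24 without sEV HYP replicate 2, not past it. The latter was 0.60 and past it without sEV NORM replicate 3. T cells also make RANKL, and their part in the Tnfsf11 level was not tested beyond a fit with their markers as a covariate. Tnfsf11 had r = 0.44 with the T cell and innate lymphoid markers over the 8 glands. That fit, chosen after seeing the data, gave -0.89 (SE 0.26) between sEV HYP and sEV NORM.

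Cited1 (chrX:102247381-102252181, minus strand) was at 7.36, 13.5 and 10.6 CPM in sEV CTRL, 20.4, 2.31 and 11.9 CPM in sEV NORM, and 10.9 and 5.67 CPM in sEV HYP. The highest and the lowest glands were both sEV NORM, the lowest from 52 counts. The log2 fold change of sEV HYP was -0.48 over sEV NORM (95% interval -2.07 to 1.11) and -0.34 over sEV CTRL (-1.93 to 1.25). Without sEV NORM replicate 2 the former was -0.96, and with skeletal muscle markers as a covariate it was -1.18, both past an unadjusted P of 0.05. Replicate 2 of sEV NORM was also by far the lowest gland in the mean of the muscle markers (-0.30 in log2 CPM). The 2 fits are therefore not separate checks.

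The 9 genes did not move as a unit from gland to gland. Over the 36 pairs, 6 had a Pearson r above 0.7 and 10 were negative (log2 CPM, n = 8 glands that share depth, tissue make-up and scaling). The closest pair by Pearson r was Pgr and Areg (r = 0.91, Spearman rho = 0.83), and Pgr also followed Prlr (r = 0.88, rho = 0.90). By rho the closest pair was Pgr and Prlr, and Esr1 with Gata3 (rho = 0.86) also came before Pgr with Areg. By Pearson r, Prlr in turn followed Esr1 (0.77), Gata3 (0.75) and Areg (0.72). The lineage factors Foxa1 and Gata3 followed each other (0.77), whereas Foxa1 and Areg did not (-0.24). Tnfsf11 had a negative r with Areg (-0.60), Wnt4 (-0.56) and Esr1 (-0.55). The 5 other genes most like the mean standardized level of the 9, out of 11748 compared, were Homer2 (r = 0.99), 9530068E07Rik (0.98), Ror1 (0.97), Fibin (0.97) and Rian (0.96), each over 8 glands. Homer2, a synaptic scaffold family gene, was at 10.9, 26.5 and 15.3 CPM in sEV CTRL, 21.6, 15.6 and 21.9 CPM in sEV NORM, and 21.3 and 24.6 CPM in sEV HYP.

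**Figure D3:**
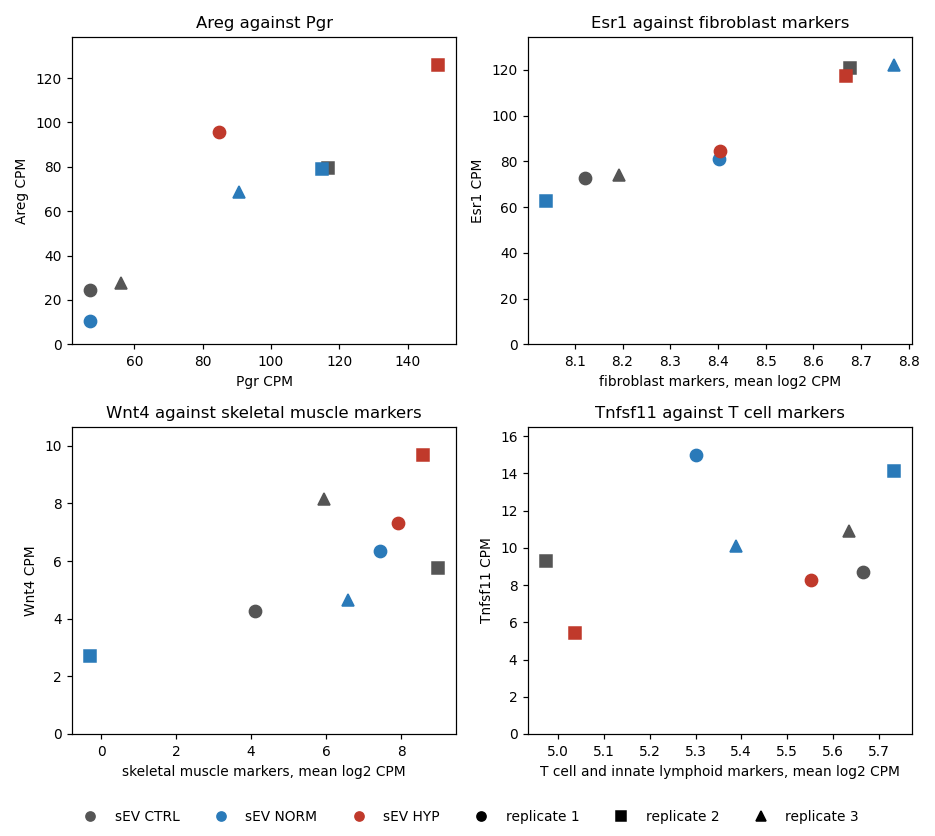
Each point is 1 of the 8 glands, colored by group and shaped by replicate number. Panels plot Areg against Pgr (both CPM), Esr1 (CPM) against the mean log2 CPM of fibroblast markers, Wnt4 against skeletal muscle markers and Tnfsf11 against T cell and innate lymphoid markers. The first 2 relations are close (r = 0.91 and 0.98 on log2 values), the sEV NORM gland with almost no muscle signal has the lowest Wnt4, and that of Tnfsf11 is loose (r = 0.44).

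Other genes of the hormone pathway were followed through 5 lists, chosen with earlier results of these data known. Of the 12 other nuclear hormone receptor genes, 11 were tested and 0 passed in any comparison. The gene of estrogen receptor beta, Esr2, had at most 3 counts in every library, so no change in it was detectable at this depth. Of 26 genes of the paracrine partners, which include the RANK receptor Tnfrsf11a, the EGF receptor Egfr and Wnt receptors, 0 passed in any comparison, and 13 had a positive and 13 a negative fold change in sEV HYP against sEV NORM. Tnfrsf11a differed by 0.12 (SE 0.20) and Egfr by -0.32 (SE 0.32) in log2 between those groups. Of 16 receptor cofactors, 1 passed in sEV HYP against sEV NORM, beside 3.95% of all genes. Nrip1, a coregulator that binds the estrogen receptor, rose by 0.66 in log2 (SE 0.25, adjusted P = 0.9998). It was at 156, 235 and 178 CPM in sEV CTRL, 175, 142 and 201 CPM in sEV NORM, and 219 and 326 CPM in sEV HYP, and the call was lost without sEV HYP replicate 2 (0.33) or without sEV NORM replicate 1 (0.67) or 2 (0.53), and with skeletal muscle markers as a covariate (0.39).

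In the prolactin and growth hormone signaling list (15 genes), 1 passed in sEV HYP against sEV NORM and 2 in sEV HYP against sEV CTRL, all higher in sEV HYP. The shares over all genes were 3.95% and 2.45%. Cish, a STAT5 target whose product inhibits cytokine receptor signaling, was at 3.05, 5.56 and 5.75 CPM in sEV CTRL, 5.95, 3.41 and 5.82 CPM in sEV NORM, and 13.7 and 11.4 CPM in sEV HYP. Both sEV HYP glands stood clear of the other 6. Cish rose by 1.31 in log2 over sEV NORM (SE 0.34, adjusted P = 0.9998) and by 1.39 over sEV CTRL (SE 0.34, adjusted P = 0.9999), and passed the unadjusted threshold in 18 of 18 alternative fits of each. DESeq2 on 2 groups gave an adjusted P of 0.0218 against sEV NORM and 0.380 against sEV CTRL. Socs2, another STAT5 target that restrains growth hormone signaling, was at 62.5, 88.4 and 65.6 CPM in sEV CTRL, 57.2, 83.4 and 111 CPM in sEV NORM, and 103 and 117 CPM in sEV HYP. It rose by 0.61 over sEV CTRL (SE 0.27, adjusted P = 0.9999), a call lost in 10 of 18 alternative fits. These include the fits without sEV HYP replicate 1 (0.70) or 2 (0.50), without sEV CTRL replicate 1 (0.51) or 3 (0.54) and without sEV NORM replicate 2 (0.61).

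In the steroid conversion list, 9 of the 12 genes found were tested. Of these, 1 passed against sEV NORM and against sEV CTRL in sEV HYP, beside 3.95% and 2.45% of all genes. Hsd17b7, an enzyme that makes estradiol from estrone and also acts in cholesterol synthesis, was at 13.2, 17.1 and 11.9 CPM in sEV CTRL, 11.8, 13.1 and 13.2 CPM in sEV NORM, and 26.2 and 21.3 CPM in sEV HYP. Both sEV HYP glands were above all others. The gene rose by 0.91 in log2 over sEV NORM (SE 0.21, adjusted P = 0.9998 in edgeR and adjusted P = 0.00826 in DESeq2). Over sEV CTRL it rose by 0.76 (SE 0.21, adjusted P = 0.9999 in edgeR and adjusted P = 0.9999 in DESeq2), a call lost without sEV HYP replicate 1 (0.60). Aromatase (Cyp19a1) and the estrogen sulfotransferase Sult1e1 had at most 3 counts in every library.

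**Figure D4:**
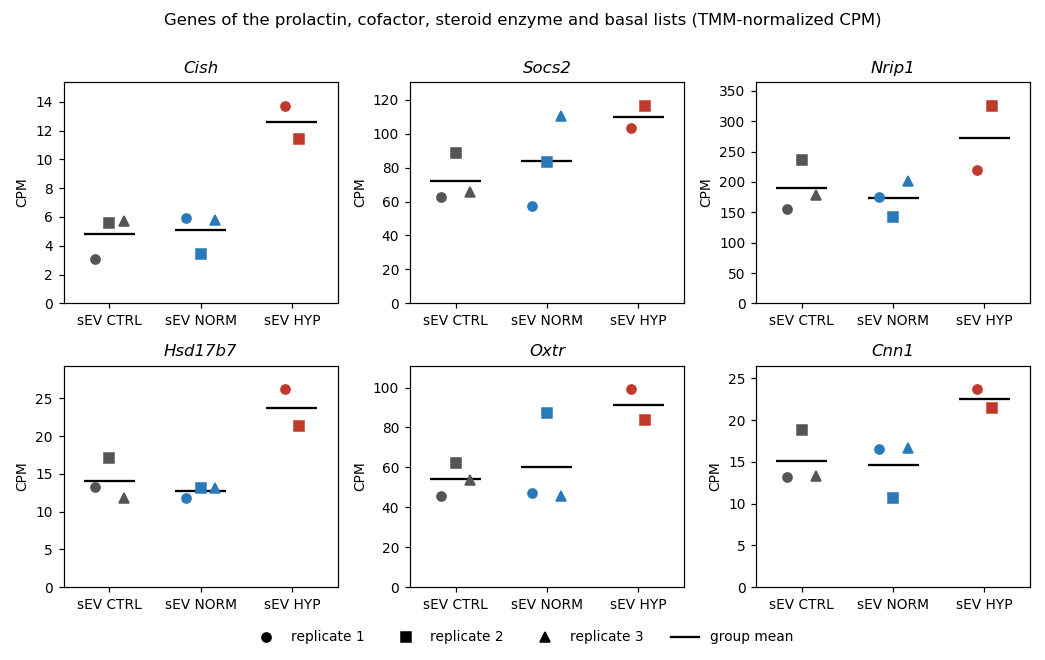
Level (vertical axes, TMM-scaled CPM from 0) of Cish, Socs2, Nrip1, Hsd17b7, Oxtr and Cnn1 in the 8 glands by group, with points for single glands shaped by replicate and bars for group means. For Cish, Hsd17b7 and Cnn1 the 2 sEV HYP glands lie above the other 6, whereas sEV NORM reaches into their range for Socs2 and Oxtr.

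Of the 12 genes of basal epithelium, whose cells receive luminal paracrine signals, 1 passed in sEV HYP against sEV NORM and 2 in sEV HYP against sEV CTRL. The shares over all genes were 3.95% and 2.45%. Oxtr, the oxytocin receptor of myoepithelial cells, was at 45.9, 62.3 and 53.9 CPM in sEV CTRL, 46.9, 87.2 and 45.8 CPM in sEV NORM, and 99.1 and 83.8 CPM in sEV HYP. It rose by 0.76 over sEV CTRL (SE 0.28, adjusted P = 0.9999), lost without sEV CTRL replicate 1 (0.65) or 3 (0.76) or sEV HYP replicate 1 (0.64). Cnn1, a contractile protein gene of smooth muscle and myoepithelium, rose by 0.62 over sEV NORM (SE 0.25) and 0.58 over sEV CTRL (SE 0.25). The former was 0.32 with skeletal muscle markers and the latter 0.32 with luminal markers as a covariate, neither past the threshold, and each was lost without either sEV HYP gland (0.50 to 0.68). The former was also lost without sEV NORM replicate 2 (0.44), and the latter without sEV CTRL replicate 1 (0.48) or 3 (0.49) or sEV NORM replicate 1 or 3 (0.58 in both). Cnn1 passed in 13 of 18 alternative fits against sEV NORM and in 7 of 18 against sEV CTRL. Of the 11 luminal progenitor and alveolar genes tested, 0 passed in any comparison, and their median log2 fold change in sEV HYP against sEV NORM was -0.67, against -0.020 over all genes. Against sEV CTRL it was -0.16. The 12 genes found of that list summed to 399 to 551 CPM in sEV CTRL. They summed to 923, 466 and 549 CPM in sEV NORM, and to 484 and 457 CPM in sEV HYP. Foxa1 followed this list most closely of the 9 (r = 0.89, n = 8). None of the 10 proliferation genes passed, with a median of 0.17 in sEV HYP against sEV NORM.

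Few markers of other cell types in the gland passed the test. Over all genes, 3.95% passed in sEV HYP against sEV NORM and 2.45% against sEV CTRL. In sEV NORM against sEV CTRL 1.62% did. None of the 12 white adipocyte, 12 skeletal muscle, 12 T cell and innate lymphoid, 8 B and plasma cell or 8 endothelial markers passed in any comparison, although the median log2 fold change of the muscle markers in sEV HYP against sEV NORM was 2.38 and that of the B and plasma cell markers -0.59. Of 8 fibroblast markers, which Esr1 followed, 1 passed: the collagen gene Col3a1 rose by 0.62 from sEV CTRL to sEV HYP (SE 0.24, adjusted P = 0.9999), with 946, 1393 and 939 CPM in sEV CTRL, 1061, 1304 and 1483 CPM in sEV NORM, and 1653 and 1699 CPM in sEV HYP. That call was lost without sEV CTRL replicate 1 or 3 (0.52 in both) or sEV HYP replicate 1 (0.64) or 2 (0.58). Of 8 myeloid markers, Fcgr1, an Fc receptor gene of macrophages, rose by 0.52 from sEV CTRL to sEV NORM (SE 0.21, adjusted P = 0.9998), lost in 9 of 18 alternative fits, including those without sEV CTRL replicate 1 or 3, sEV NORM replicate 1 or 3 or sEV HYP replicate 2. Its value was 0.36 to 0.65 over the 18. The skin genes Dsg1a and Krt77 passed in sEV NORM against sEV CTRL through sEV NORM replicate 3, where they reached 10.4 and 18.9 CPM, against at most 0.803 and 0.596 CPM in the other 7 glands. Without that gland the difference of Foxa1 between sEV NORM and sEV CTRL was 0.69, no longer past the threshold, and that of Tnfsf11 between sEV HYP and sEV NORM was -1.09, still past it.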

How the data were processed

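Whole mammary glands of 8 mice were profiled by polyadenylated RNA-seq. The authors aligned reads with STAR and estimated gene levels with RSEM 1.2.12, per the methods and the submitters' processing notes, and deposited whole-number counts per gene (whether RSEM's estimates were rounded is not given in the sources used here). Genes were named through the reference annotation of build GRCm38 (51596 of 51789 with a symbol, and 0.0389% of counts lay on the rest). The library totals of 18194996 to 24622569 counts set the precision of low genes.

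Counts were fitted in edgeR 4.0.16 (R 4.3.3) as 3 groups in 1 quasi-likelihood model, with TMM factors of 0.975 to 1.02 and a minimum count of 10 in filterByExpr, leaving 17858 genes. Tests are two-sided, and adjusted P values are Benjamini-Hochberg over all genes tested. DESeq2 1.42.0 on 2 groups, other scalings and filters, the replicate number as a block, marker means as covariates and leaving out each library were alternatives. The study's own threshold, an unadjusted P of 0.05, was used to call genes. Genes are named if they are members, if they passed in a listed pathway or marker set (at most 5 a list), or if they were among the 5 most like the members. The members and lists were chosen with earlier results of these data known. A result for 1 gene of the lists is not reported here. Scripts were tested on simulated data.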

Additional observations from a re-analysis of the deposited data

How the results depend on the processing

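Of the log2 fold changes of the 9 genes under the alternatives, 417 kept direction and side of the threshold, 22 passed it newly, 17 lost it and 30 changed sign. The cause of each change was not tested, also where a gland was left out or a covariate was added. With sEV HYP against sEV NORM, the count of members past P 0.05 was 1 in place of 2 in edgeR on only these groups. It was also 1 with fibroblast or T cell markers as a covariate, both chosen after seeing the data. Of all genes, 6.07%, 5.29% and 6.11% passed in these fits, against 3.95% in the fit used above. With skeletal muscle markers 3 members passed (Foxa1, Tnfsf11 and Cited1, all lower, beside 4.64% of all genes). Without 1 of the sEV CTRL or sEV NORM glands, 1 or 2 members passed, beside 2.84% to 5.57% of all genes. The median log2 fold change of the 9 became -0.19 with skeletal muscle markers as a covariate, as did Esr1 (-0.19). The median was -0.082 without sEV HYP replicate 2 and -0.0099 without sEV NORM replicate 2, within a range of -0.082 to 0.42. Esr1 was -0.0083 with T cell markers. Leaving out a gland moved Esr1 between -0.082 and 0.49, Prlr between -0.020 and 0.56 and Cited1 between -1.02 and 0.22. With sEV HYP against sEV CTRL, the count was 1 in place of 0 in either tool on only these groups and with no filter on low counts, and 0 to 4 when a gland was left out, with a median of 0.19 to 0.51. With luminal markers as a covariate, the median became -0.056, Esr1 -0.12, Foxa1 -0.056, Gata3 -0.11 and Wnt4 -0.016. Esr1 was -0.00217 with muscle and -0.082 with fibroblast markers. Leaving out a gland moved Esr1 between -0.091 and 0.46 and Cited1 between -0.88 and 0.037. With sEV NORM against sEV CTRL, the count was 2 in place of 1 with muscle, fibroblast or T cell markers as a covariate. Of all genes, 2.40%, 3.04% and 3.00% passed in these fits, against 1.62% in the fit used above. Without 1 of the sEV CTRL or sEV NORM glands the count was 0 to 3, beside 1.26% to 5.75%. The median moved between -0.057 and 0.58 when a gland was left out. With luminal markers the count stayed at 1, but the gene was Wnt4 (-0.80) in place of Foxa1 (0.36), beside 6.35% of all genes. In that fit Prlr was -0.034 and Cited1 -0.62. Esr1 was 0.19 with muscle and 0.066 with T cell markers, and Cited1 -0.048 with fibroblast markers. Leaving out a gland gave ranges of -0.31 to 0.27 for Esr1, -0.087 to 0.71 for Pgr, -0.11 to 0.58 for Prlr, -0.15 to 1.02 for Areg and -0.56 to 0.63 for Cited1. The labels do not say whether same-numbered glands were paired. Same-numbered libraries had correlations of -0.42 to 0.37 in their deviations from the group means. With 2 or 3 glands per group these deviations are tied to each other, so the check cannot settle pairing. A fit with the number as a block, a paired analysis, called 2 members in sEV HYP against sEV CTRL (Pgr 0.72, Areg 1.69) and 0 in sEV NORM against sEV CTRL, with Cited1 at -0.20 there. In sEV HYP against sEV NORM it called Areg (1.58) and Tnfsf11 (-0.98) but not Wnt4 (1.05), and both Cnn1 calls were lost under the block (0.63 and 0.58), as were those of Fcgr1 (0.52) and Dsg1a (2.06). Over all genes it called 769 in place of 706, 401 in place of 438 and 252 in place of 290.

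With 2 sEV HYP glands, any fit that left out 1 of them rested on 1 gland. Wnt4, Tnfsf11 and Cited1 had 52 to 507 counts per library, but the errors did not follow depth alone: Areg had the largest SE of the 9 and Tnfsf11 the smallest in each comparison.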
